A study of Homo sapiens with 13 samples.

Results

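Replication-dependent histone genes encode the linker histone H1 and the core histones H2A, H2B, H3 and H4 that package newly copied DNA. They were taken as every row of the deposited array table whose platform annotation gave 1 symbol of the clustered histone families, under either the older HIST names or the current names, without pseudogenes. This gave 55 genes of the 18377 genes with a row of their own: 6 of H1, 14 of H2A, 16 of H2B, 8 of H3 and 11 of H4. No member had more than 1 row. The members lie in clusters on chromosome 6 (49 genes) and chromosome 1 (5 genes), with H4C16 alone on chromosome 12.

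RNA came from HepG2, a human hepatoblastoma line, and from HepG2S1, a line raised from it by months of stepwise higher doses of the kinase inhibitor sorafenib and then kept in the drug. The 13 flasks, each on 1 whole-transcript array, formed 4 groups: HepG2S1 withdrawn from sorafenib at 20% O2 (n = 3), HepG2S1 with 6 µM sorafenib at 2% O2 (n = 3), HepG2S1 with 6 µM sorafenib at 20% O2 (n = 4), and HepG2 never given sorafenib at 20% O2 (n = 3). All were grown in a medium with serum, insulin and dexamethasone and harvested after 72 h. HepG2S1 stands for a resistant line from 1 selection history, so that line and selection cannot be told apart in any comparison with HepG2, while withdrawn HepG2S1 cells give that comparison without current drug, and the sources used here do not say whether HepG2 flasks received DMSO, the drug's solvent. Replicates were flasks, with nothing said of independent cultures, so p-values measure the spread between flasks.

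Histone mRNAs of this kind are made in S phase, when DNA is copied, and decay when replication stops. Their transcription depends on NPAT, a coactivator at the histone locus bodies that is switched on by cyclin E with CDK2. The mRNAs end in a stem-loop bound by SLBP in place of a poly(A) tail, and several members can also give polyadenylated forms in cells that leave the cycle. Labelling here used a whole-transcript kit, which primes along the RNA and not from a poly(A) tail. Many members have nearly the same coding sequence. How far their probes also bind the mRNA of other members was not tested.

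Promoters of 4 members are shown because H2BC9 and H2BC21 lay at opposite ends of the comparison of HepG2S1 with HepG2, while H4C8 and H4C4 had the largest rises after withdrawal. Each run is the 250 bases before the gene's start in RefSeq (GRCh38.p14), given 5′ to 3′ on the gene's strand. They lie at chr6:26251364-26251613 (H2BC9, + strand), chr1:149886683-149886932 (H2BC21, - strand), chr6:26285535-26285784 (H4C8, - strand) and chr6:26189113-26189362 (H4C4, - strand). Capitals mark the octamer ATTTGCAT, to which the factor POU2F1 binds in H2B promoters, the CCAAT box and the TATA box TATAAA, on either strand.
H2BC9: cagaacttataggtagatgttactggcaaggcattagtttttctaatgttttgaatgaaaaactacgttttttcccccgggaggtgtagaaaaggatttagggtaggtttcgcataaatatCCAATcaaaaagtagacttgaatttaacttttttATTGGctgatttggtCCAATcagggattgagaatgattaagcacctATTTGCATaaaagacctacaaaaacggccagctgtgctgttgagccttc
H2BC21: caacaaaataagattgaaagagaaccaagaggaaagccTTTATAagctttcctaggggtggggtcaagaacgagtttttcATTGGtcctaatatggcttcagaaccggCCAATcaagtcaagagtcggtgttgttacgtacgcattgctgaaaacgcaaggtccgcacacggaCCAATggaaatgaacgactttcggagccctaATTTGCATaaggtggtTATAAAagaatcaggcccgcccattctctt
H4C8: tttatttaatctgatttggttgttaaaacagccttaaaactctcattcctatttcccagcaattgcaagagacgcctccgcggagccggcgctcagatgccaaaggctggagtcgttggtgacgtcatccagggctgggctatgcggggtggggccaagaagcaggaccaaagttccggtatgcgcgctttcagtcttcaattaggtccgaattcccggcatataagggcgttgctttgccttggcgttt
H4C4: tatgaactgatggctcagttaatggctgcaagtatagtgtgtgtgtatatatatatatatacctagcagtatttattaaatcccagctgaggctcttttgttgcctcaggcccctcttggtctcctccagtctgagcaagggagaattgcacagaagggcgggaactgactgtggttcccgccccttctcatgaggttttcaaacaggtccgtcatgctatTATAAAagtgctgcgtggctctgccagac

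The octamer began 49 bases before the start of H2BC9 and 46 bases before that of H2BC21, and each of these promoters also held 3 CCAAT boxes. H4C4 held a TATA box 29 bases before its start, and H4C8 held none of the motifs searched. Over the 50 members with a RefSeq promoter, the octamer was in 10 of 13 H2A and 13 of 16 H2B promoters and in no H1, H3 or H4 promoter, against 1.66% of all 27305 promoters of the same length. CCAAT was in every H1, H2A, H2B and H3 promoter and in 3 of 9 H4 promoters (88% of members, 33% of all promoters). TATAAA was in 34 of the 50 (68%, against 11.1%). AAACACA, the AC box of H1 genes, was in all 6 H1 promoters and in no other member (4.95% of all promoters). The E2F site, searched only as the exact letters TTTGGCGC, was in none of the 50 windows and in 0.553% of all promoters. Other forms of the site were not searched. These matches followed histone class: the octamer was in 18 of 36 promoters of members higher in HepG2S1 with sorafenib than in HepG2, and in 2 of 5 of those lower.

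Across all rows, Pearson's r was 0.995 to 0.998 within groups, 0.991 to 0.996 between the HepG2S1 groups, and 0.913 to 0.923 between HepG2S1 and HepG2. All 12 hepatocyte markers measured, ALB among them, were lower in HepG2S1 with sorafenib than in HepG2. Their mean log2 value was 5.77 to 5.81 on withdrawn arrays, 5.69 to 5.74 at 2% O2 and 5.77 to 5.84 with sorafenib at 20% O2, against 12.74 to 12.78 in HepG2. HepG2S1 arrays were thus near the floor of 5.76, the median lower quartile of the arrays, for the markers that define HepG2. Of 10 fibroblast markers 3 were higher in HepG2S1 with sorafenib, DCN, LUM and FAP at 5.43, 5.01 and 3.75, where 30.1% of all genes were higher. ACTA2 was lower, at -2.0, and the other 6, COL1A1 among them, were not called, with a median of -0.02 over the 10 markers and 4 of the 10 above 0. The mean over the 10 was 8.45 to 8.46 on withdrawn arrays, 8.35 to 8.36 at 2% O2 and 8.33 to 8.39 with sorafenib at 20% O2, against 7.10 to 7.26 in HepG2. Of 9 endothelial and blood markers 1 was higher and 4 lower, with means of 6.62 to 6.73 in HepG2S1 with sorafenib and 6.77 to 6.88 in HepG2. The part of these marker differences in the histone values was not tested. The common origin of the lines was not tested either. In such bulk RNA, fewer cells in S phase and less histone mRNA per cell cannot be told apart.

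The first comparison set HepG2S1 with sorafenib against HepG2, both at 20% O2. Most histone genes were higher in the resistant line: 40 of 55 were called higher and 6 lower in limma at an adjusted p under 0.05, where 30.1% of all genes were called higher and 27.2% lower. The members' median log2 fold change was 0.75, against 0.01 over all genes. A rise of 2-fold or more was called for 23 members and a fall of that size for 3, against 8.45% and 7.31% of all genes. The arrays of the 2 groups did not overlap for 47 of the 55 members, including all 46 called, against 56.2% of all genes. The mean log2 value over the 55 genes was 8.55, 8.58, 8.54 and 8.61 on the HepG2S1 arrays and 7.68, 7.85 and 7.88 on the HepG2 arrays. On all 10 HepG2S1 arrays, whatever the drug or oxygen, 40 members lay above all 3 HepG2 arrays (25% of all genes did) and 5 lay below (22.4%). Of the members, 45 had a mean above the floor in all 4 groups and 4 below it in all 4.

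**Figure D1:**
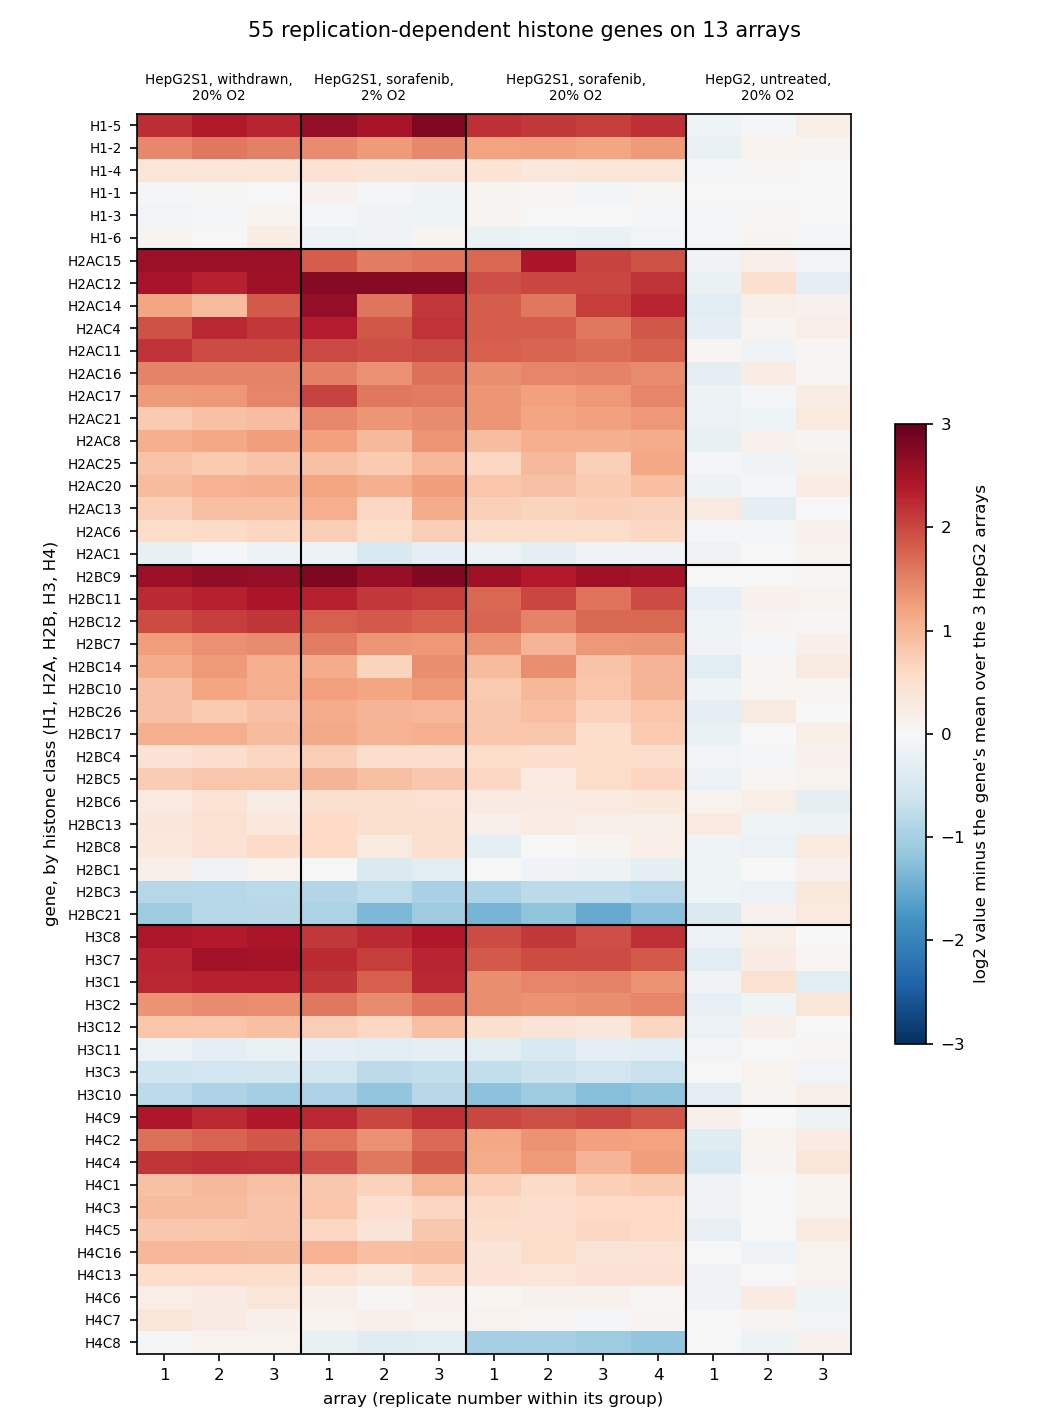
Heat map of the 55 histone genes, 1 row each grouped by class, on the 13 arrays in columns. Colour gives the log2 value minus the gene's mean over the 3 HepG2 arrays, and the 40 genes above all 3 HepG2 arrays are red on all 10 HepG2S1 arrays, while a few H2B, H3 and H4 rows are blue.

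H2B and H2A pair as dimers in the nucleosome. H2BC9, an H2B gene of the chromosome 6 cluster, had log2 values of 12.24, 12.09, 12.24 and 12.20 in HepG2S1 with sorafenib and 9.70, 9.69 and 9.75 in HepG2. The groups lay far apart, with a log2 fold change of 2.48 ± 0.06 (SE, adjusted p = 9.35e-15). H2BC11 and H2BC12 were higher by 1.83 ± 0.11 and 1.67 ± 0.07. The HepG2 mean of H2BC11, at 5.80, lay close to the floor, which limits its fold. In all, 11 of 16 H2B genes were called higher and 2 lower, and the class mean ran over 8.48 to 8.56 in HepG2S1 with sorafenib and 7.76 to 8.0 in HepG2.

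H2BC21, an H2B gene on chromosome 1 that is also known to make polyadenylated mRNA, went the other way. Its values were 8.59, 8.79, 8.48 and 8.73 in HepG2S1 with sorafenib and 9.56, 10.11 and 10.28 in HepG2, a change of -1.33 ± 0.14 (adjusted p = 7e-07). Every HepG2S1 array was below every HepG2 array. A separate row annotated to H2BC21 together with 2 pseudogenes was higher in HepG2S1, by 0.70 ± 0.06, so that the rows do not give H2BC21 1 direction. H2BC3 was lower by a change of -0.84 ± 0.10. H2BC26, also an H2B gene on chromosome 1, was called higher, at 0.81.

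In the H2A class 13 of 14 genes were called higher and none lower in limma, and 1 gene near the floor was not called, at -0.16 with an unadjusted p of 0.047. The class mean was 8.80, 8.86, 8.84 and 8.94 in HepG2S1 with sorafenib and 7.49, 7.65 and 7.70 in HepG2. H2AC15 had values of 11.13, 11.85, 11.43 and 11.31 in HepG2S1 with sorafenib and 9.28, 9.60 and 9.31 in HepG2. The groups did not overlap, and the log2 fold change was 2.04 ± 0.13 (adjusted p = 1.61e-09). A row annotated to H2AC15 together with H2BC15 was higher by less, at 0.81 ± 0.09. H2AC12 and H2AC14 were higher by 2.02 ± 0.14 and 1.94 ± 0.24, but their means of 5.28 and 4.95 in HepG2 lay below the floor, which limits these folds. H2AC21, on chromosome 1, was higher by 1.26 ± 0.09.

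H2A and H2B genes often stand head to head and share the DNA between their starts. Among the 50 members with a RefSeq promoter there were 9 such pairs, with starts 215 to 248 bases apart. Members without one, such as H2AC12, were not searched for pairs. Both genes were called higher in 5 pairs, where 13 of 14 H2A and 11 of 16 H2B genes were called higher in all. H2AC11 (1.75) with H2BC11 (1.83) was among the 5. Whether partners moved together more than other members was not tested. In 1 pair the calls were opposite: H2AC20 was at 0.85 ± 0.08 and its partner H2BC21 at -1.33.

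Among H3 genes, which with H4 form the nucleosome's central tetramer, 5 of 8 were called higher and 3 lower, with a class mean of 8.36 to 8.42 in HepG2S1 with sorafenib and 7.59 to 7.90 in HepG2. H3C8 had 8.98, 9.14, 8.96 and 9.21 in HepG2S1 with sorafenib and 6.84, 7.21 and 7.01 in HepG2. The groups lay apart: it was higher by 2.05 ± 0.09 and H3C7 by 1.90 ± 0.11. H3C1 was higher by 1.42 ± 0.15. H3C2, with 12.35, 12.31, 12.36 and 12.41 in HepG2S1 with sorafenib and 10.71, 10.82 and 11.32 in HepG2, was higher by 1.41 ± 0.11. H3C10 had 8.13, 8.29, 8.09 and 8.15 in HepG2S1 with sorafenib and 9.10, 9.44 and 9.54 in HepG2. It changed by -1.19 ± 0.10, H3C3 by -0.65 ± 0.07 and H3C11 by -0.35 ± 0.05. A row annotated to H3C10 together with H2AC13 was higher, by 0.88 ± 0.09.

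Of 11 H4 genes 8 were called higher, H4C9 by 1.96 ± 0.08, H4C2 by 1.23 ± 0.12 and H4C4 by 1.16 ± 0.14. The HepG2 mean of H4C9, at 5.90, lay close to the floor, which limits its fold. H4C3 was higher by 0.57 ± 0.07. H4C8 alone of the class was lower, by a change of -1.06 ± 0.07 (adjusted p = 3.55e-09). The H4 class mean was 8.29, 8.31, 8.28 and 8.29 in HepG2S1 with sorafenib and 7.62, 7.76 and 7.83 in HepG2.

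H1 histones bind the linker DNA between nucleosomes. H1-5 had 10.30, 10.23, 10.18 and 10.29 in HepG2S1 with sorafenib and 7.98, 8.06 and 8.29 in HepG2, and was higher by 2.14 ± 0.08 (adjusted p = 2.17e-12). H1-4, another linker gene, had 13.84, 13.75, 13.80 and 13.79 in HepG2S1 with sorafenib and 13.39, 13.46 and 13.44 in HepG2. The difference was small beside that of H1-5, at 0.36 ± 0.04, and the groups still did not overlap. H1-2 was higher by 1.23 ± 0.07, and the other 3 linker genes were not called. Of the 6 members known to make polyadenylated mRNA as well (H1-2, H2AC6, H2BC4, H2BC5, H2BC12 and H2BC21), 5 were called higher, by 0.53 to 1.67, and H2BC21 was lower.

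Genes that act on histone mRNA and histone protein were measured beside them. NPAT was higher in HepG2S1 with sorafenib by 1.28 ± 0.09, SLBP by 0.37 ± 0.05, and CASP8AP2, a histone locus body protein, by 1.53 ± 0.09. Of 15 genes of histone transcription and mRNA processing 9 were called higher and 3 lower (1 lower without HepG2 replicate 3). Of 21 histone chaperones 14 were higher and 5 lower, with MMS22L at 2.10, ASF1B at 2.05, CHAF1B at 1.67 and HIRA, a chaperone of replication-independent deposition, at -0.77. Of 12 replacement histones, made outside S phase, 4 were higher (33.3%) and 3 lower (25%), near the 30.1% and 27.2% of all genes, with MACROH2A2 at -2.86 and H2AJ at 0.78. Of 35 genes of G1/S and S phase 33 were higher and 1, CCNE1, lower, and of 30 G2/M genes 29 were higher. RRM1, a subunit of ribonucleotide reductase, was at 3.88, and CCNE2, cyclin E2, at 2.97. Of 9 inhibitors of the cycle 5 were higher and 0 lower, CDKN2B by 1.55 and CDKN2A by 1.27.

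Withdrawn HepG2S1 cells were set against the same HepG2 arrays, so that these values are not independent of those above. These cells, like HepG2, were without sorafenib. Of the members 44 were called higher and 5 lower, against 29.6% and 27% of all genes, with a median of 0.91 and 25 members higher by 2-fold or more (8.37% of all genes). H2BC9 was at 2.62 ± 0.06, H2AC15 at 2.57 ± 0.14, H3C7 at 2.44 ± 0.11, H4C9 at 2.36 ± 0.09 and H1-5 at 2.29 ± 0.09. H2BC21 was still lower, at -0.92 ± 0.15, and H3C10 at -0.91 ± 0.11. H4C8 was not called, at 0.06 ± 0.08 (adjusted p = 0.592).

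**Figure D2:**
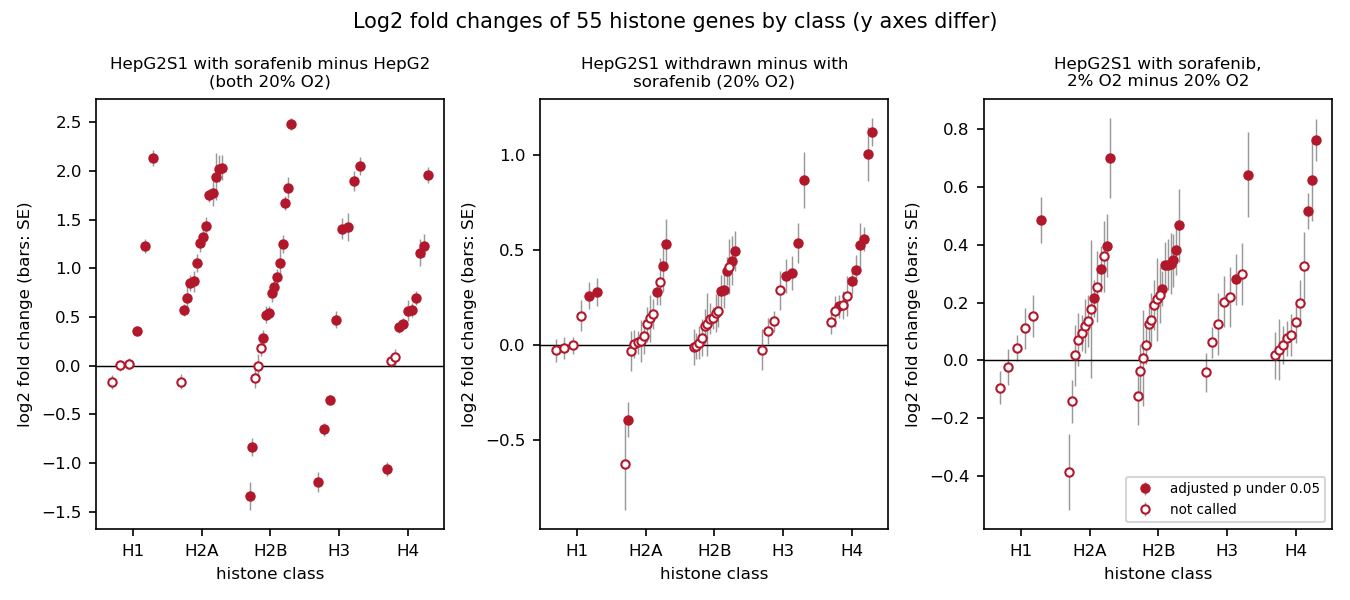
Log2 fold change of each histone gene (vertical axis, bars: SE) by class, in 3 comparisons with their own axis ranges. Filled points have an adjusted p under 0.05, and in the middle panel all 11 H4 points lie above 0, with H4C8 (1.12) and H4C4 (1.01) at the top.

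The next comparison asked what changed in HepG2S1 when the drug was removed at 20% O2. Histone genes were higher after withdrawal, by less than between the lines: 21 of 55 were called higher and 1 lower, against 10.1% and 7.9% of all genes, and the median was 0.18, against -0.02 over all genes. The mean over the 55 genes was 8.76, 8.80 and 8.83 on the withdrawn arrays and 8.55, 8.58, 8.54 and 8.61 on the arrays with sorafenib. H4C8 and H4C4 were the only members called higher by 2-fold or more, a size reached by 0.109% of all genes. The arrays of the 2 groups did not overlap for 34 members, all 22 called among them, against 30.2% of all genes. Of 10 fibroblast markers 2 were higher (DCN and LUM, at 0.82 and 0.73), 1 was lower (ACTA2, at -0.35) and 7 were not called, with a median of -0.06 and 3 of the 10 above 0. Their part in the histone values was not tested.

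The H4 class held 7 of the 21 calls. Its mean was 8.73, 8.75 and 8.75 on the withdrawn arrays and 8.29, 8.31, 8.28 and 8.29 on those with sorafenib. H4C8 had 10.04, 10.21 and 10.20 in withdrawn cells and 9.10, 9.09, 9.02 and 8.91 with sorafenib. The groups were well apart, with a log2 fold change of 1.12 ± 0.07 (adjusted p = 4.54e-07), and the withdrawn values overlapped the HepG2 values of 10.11, 9.94 and 10.22. H4C4 had 10.14, 10.18 and 10.16 in withdrawn cells and 9.09, 9.25, 9.01 and 9.25 with sorafenib, a change of 1.01 ± 0.14 (adjusted p = 0.000197), away from HepG2 at 7.54, 8.06 and 8.36. H4C16, outside the clusters, was higher by 0.56 ± 0.06 and H4C3 by 0.34 ± 0.07. All 11 H4 genes had a positive value, as they also did at 2% against 20% O2.

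Members of H3, H2B and H1 were higher as well. H3C1 had 9.22, 9.27 and 9.30 in withdrawn cells and 8.37, 8.43, 8.46 and 8.33 with sorafenib, and was higher by 0.87 ± 0.15 (adjusted p = 0.000828). H3C7 and H3C12 were higher by 0.54 ± 0.11 and 0.38 ± 0.09, among 4 of 8 H3 genes. In H2B 5 of 16 were called, H2BC11 by 0.49 ± 0.11, H2BC8 by 0.45 ± 0.13 and H2BC12 by 0.39 ± 0.07. H2BC9, the member farthest above HepG2, was not called at 0.14 ± 0.06 (adjusted p = 0.124). In H1 H1-2 was higher by 0.28 ± 0.07, and a gene near the floor by 0.26.

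H2A moved in both directions. H2AC15 had 11.95, 11.98 and 11.96 in withdrawn cells, above all of 11.13, 11.85, 11.43 and 11.31 with sorafenib (0.53 ± 0.13, adjusted p = 0.0101). The row annotated to H2AC15 together with H2BC15 was not called, at -0.12 ± 0.09 (adjusted p = 0.445). H2AC11 and H2AC12 were higher by 0.28 ± 0.06 and 0.42 ± 0.14. H2AC21 had 11.55, 11.64 and 11.69 in withdrawn cells and 12.08, 11.95, 11.99 and 12.06 with sorafenib. It changed by -0.39 ± 0.09 (adjusted p = 0.00684) and was the 1 member called lower. Values shared by H2AC18, H2AC19, H2AC20 and H2AC21 went the other way, at 0.23 ± 0.06 (adjusted p = 0.0143). Of the 6 members known to make polyadenylated mRNA 3 were called higher (H1-2, H2BC5 and H2BC12) and none lower in limma, with H2AC6 at 0.02 ± 0.06 and H2BC21 at 0.41 ± 0.14 (adjusted p = 0.0617). A separate row shared by H2BC12, H2BC12L, H2BC17 and H2BC5 was not called, at -0.01 ± 0.06 (adjusted p = 0.934). Without withdrawn replicate 2, 1 of the 6 and 2 of the 16 H2B genes were called, and without withdrawn replicate 3 H2AC14 joined H2AC21 as lower.

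Of the 35 genes of G1/S and S phase 23 were higher after withdrawal and 1, RFC4, lower, with CCNE2 at 0.97 ± 0.11, RRM2, the other subunit of ribonucleotide reductase, at 0.96 ± 0.07 and CCNE1 at 0.70 ± 0.07. Of the 30 G2/M genes 4 were higher and 2 lower (13.3% and 6.67%), near the 10.1% and 7.9% of all genes. SLBP and NPAT were not called, at 0.08 ± 0.05 and 0.21 ± 0.09. Of the 15 processing genes 4 were higher (26.7%), CSTF2T by 0.35 ± 0.05, and MIF4GD was lower. The chaperones ASF1B, NASP and SUPT16H were higher by 0.44, 0.38 and 0.32, among 4 of 21 (19%). Of the 12 replacement histones 3 were higher (25%), H2AX by 0.31 and H2AZ1 by 0.20, a count of 1 without withdrawn replicate 1. Of the calls among the 55 members, 14 of the 21 higher and the 1 lower held in all 15 alternatives that tested them. H3C12 was not tested where genes under the 33rd percentile were dropped. Calls were lost by the other 7: H2AC12 in 8 alternatives, H2BC5 in 5, H2BC17 in 4, H2BC8 and an H4 gene near the floor in 3 each, H1-2 without withdrawn replicate 2, and an H1 gene near the floor without withdrawn replicate 3.

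**Figure D3:**
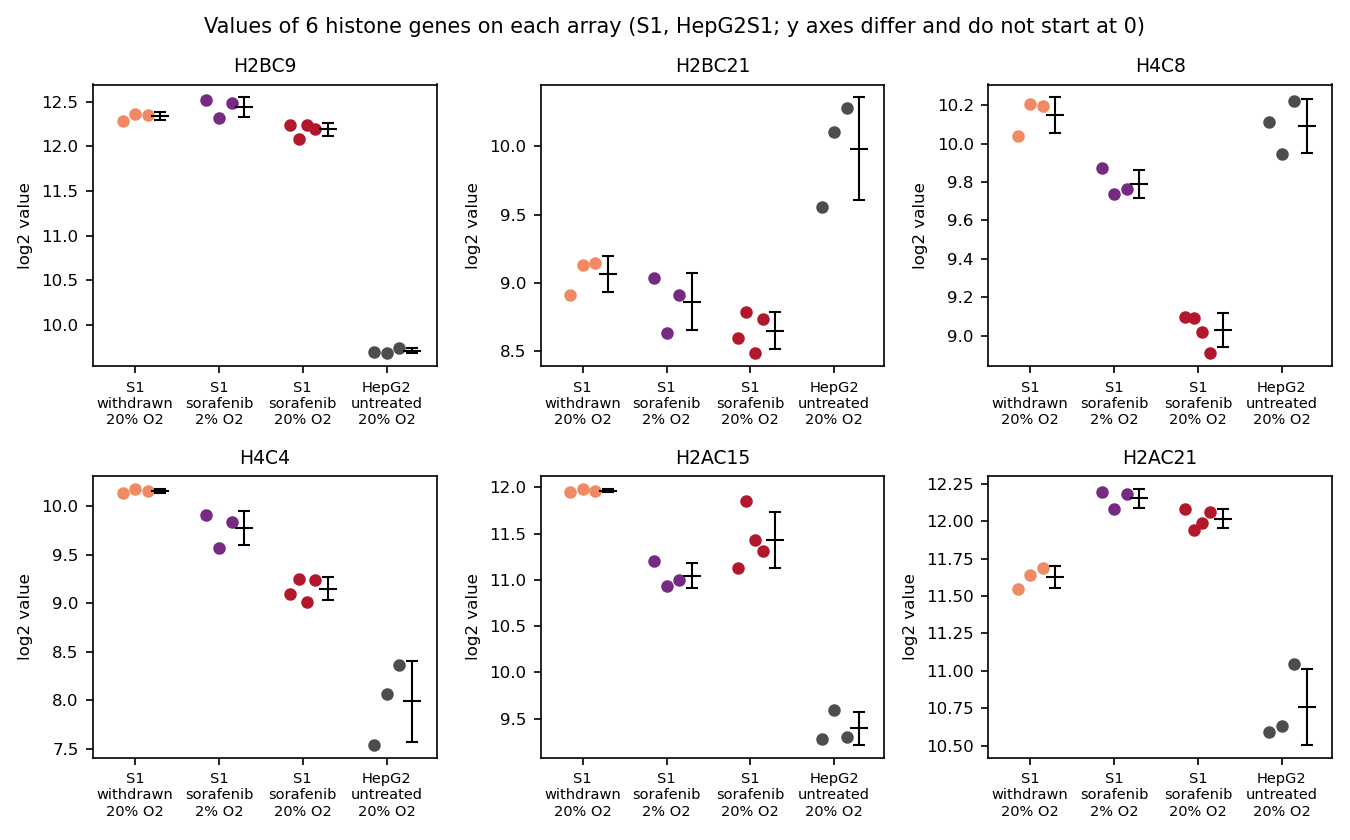
Log2 values of 6 histone genes on each array (points), with the mean and SD of each group beside them (bars). H4C8 is near 10 in withdrawn cells and HepG2 and near 9 with sorafenib at 20% O2, H2AC15 is highest and H2AC21 lower in withdrawn cells, and H2BC21 is highest in HepG2.

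The third comparison set 2% O2 against 20% O2 in HepG2S1 kept in sorafenib. Of 55 members 17 were called higher and 0 lower in limma, against 8.99% and 6.17% of all genes. At an unadjusted p under 0.05, 25 were higher and 1 lower, against 14.8% and 16.6% of all genes. The median was 0.18, against -0.03 over all genes. The arrays did not overlap for 23 members, 16 of the 17 called among them, against 28.2% of all genes. The mean over the members was 8.84, 8.65 and 8.81 on the arrays at 2% O2 and 8.55, 8.58, 8.54 and 8.61 at 20% O2. Replicate 2 at 2% O2 lay closest to the 20% O2 arrays. The count rested on 1 array: without replicate 1 at 2% O2 only 8 members were called higher, 2 of them in H2B and 1 in H2A. Without replicate 1 at 20% O2, H2AC15 was called lower, where with all arrays it was at -0.39 ± 0.13 (adjusted p = 0.0619). The calls that held in all 15 alternatives that tested them were also 8 in number. They were H1-5, H2AC12, H2BC5, H2BC10, H3C1, H4C4, H4C8 and H4C16. H2BC10, named after its values were seen, was not tested where genes under the 33rd percentile were dropped.

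H4C8 had 9.87, 9.74 and 9.76 at 2% O2 and 9.10, 9.09, 9.02 and 8.91 at 20% O2. Its log2 fold change was 0.76 ± 0.07 (adjusted p = 5.8e-06), and the groups did not overlap. H4C4 and H4C16 were higher by 0.62 ± 0.14 and 0.52 ± 0.06, and these were the 3 called H4 genes. H2AC12 had 8.0, 8.0 and 8.01 at 2% O2 and 7.21, 7.27, 7.29 and 7.44 at 20% O2, and was higher by 0.70 ± 0.14 (adjusted p = 0.00316). H3C1 was higher by 0.64 ± 0.15.

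H1-5 was the 1 linker gene called, with 10.75, 10.58 and 10.88 at 2% O2 and 10.30, 10.23, 10.18 and 10.29 at 20% O2. The arrays were apart, at 0.49 ± 0.08 (adjusted p = 0.000874). H2B gave 7 of the 17 calls, among them H2BC8 at 0.47 ± 0.13, H2BC5 at 0.38 ± 0.09, H2BC17 at 0.35 ± 0.09 and H2BC9 at 0.25 ± 0.06. Of these H2BC8, H2BC17 and H2BC9 were not called without replicate 1 at 2% O2. H2A gave 4 calls, with H2AC17 at 0.40 ± 0.11 and H2AC20 at 0.32 ± 0.08, both also lost without that replicate. H3C12, at 0.28 ± 0.09 (adjusted p = 0.0462), was lost in several settings. Of the 6 members known to make polyadenylated mRNA H2BC5 was called. The row shared by H2BC12, H2BC12L, H2BC17 and H2BC5 was not called, at 0.05 ± 0.06 (adjusted p = 0.592).

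The same lists were read at 2% against 20% O2, where 8.99% of all genes were called higher and 6.17% lower. Of the 35 G1/S and S phase genes 2 were higher, TK1, thymidine kinase, by 0.46 ± 0.06 and CCNE2 by 0.39 ± 0.11, and MCM3 was lower. Of the 30 G2/M genes 4 were higher (13.3%), ANLN by 0.49, and 0 lower. The count of 4 ran between 1 with 75th percentile scaling and 8 without replicate 3 at 2% O2. At an unadjusted p under 0.05 in limma, 9 of the 30 were higher and 1 lower, against 14.8% and 16.6% of all genes. Of the 15 processing genes 0 were called in either direction in limma, with 0 higher and 2 lower at an unadjusted p under 0.05, and NPAT and SLBP were at 0.07 ± 0.09 and 0.03 ± 0.05. Of 21 chaperones CABIN1 and ASF1B were higher, by 0.24 and 0.22, and RBBP7 was lower, while without replicate 1 at 2% O2 none of the 3 was called and 1 of the G1/S and S phase genes was higher.

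**Figure D4:**
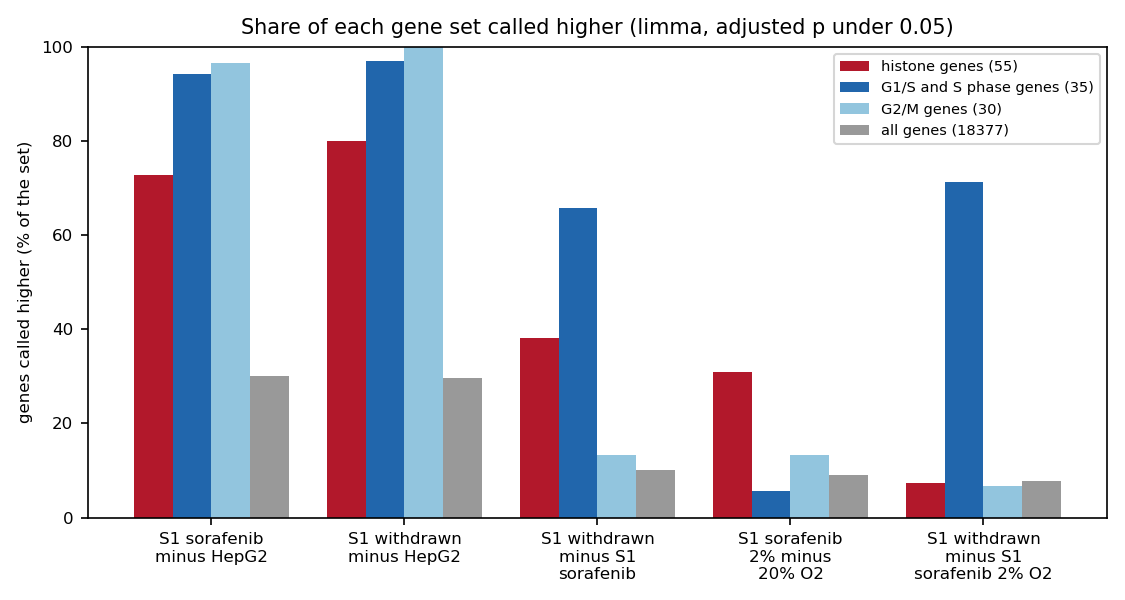
Share of each gene set called higher in limma (vertical axis, % of the set) in 5 comparisons, with bars for the histone genes, the genes of G1/S and S phase, those of G2/M and all genes. At 2% against 20% O2 17 of 55 histone genes and 2 of 35 G1/S and S phase genes are called, while withdrawn cells against cells with sorafenib at 20% O2 have 21 of 55 and 23 of 35.

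Withdrawal and low oxygen were both set against the same 4 arrays, so their values are not independent, and withdrawn cells at 20% O2 were therefore compared directly with cells kept in sorafenib at 2% O2. Here drug and oxygen differ together. Of the members 4 were called higher in withdrawn cells and 4 lower, against 7.73% and 10.8% of all genes, while 47 were not called. H2AC15 had 11.95, 11.98 and 11.96 in withdrawn cells and 11.20, 10.93 and 11.00 at 2% O2, and was higher by 0.92 ± 0.14 (adjusted p = 0.000313). The row annotated to H2AC15 together with H2BC15 had the opposite sign, at -0.27 ± 0.10, and was not called (adjusted p = 0.0831). H4C8 was higher by 0.36 ± 0.08 (adjusted p = 0.0048). H2AC21 was lower, with 11.55, 11.64 and 11.69 in withdrawn cells and 12.20, 12.08 and 12.18 at 2% O2 (-0.53 ± 0.10, adjusted p = 0.00133). Values shared by H2AC18, H2AC19, H2AC20 and H2AC21 were not called, at -0.08 ± 0.07 (adjusted p = 0.484). The calls of the single rows of H2AC15, H4C8 and H2AC21 held in each of 14 alternatives. Of the remaining calls, H2BC12 and H4C3 (higher, by 0.26 and 0.25) and H1-5, H2AC14 and H2AC17 (lower, at -0.33, -0.80 and -0.37) each lost theirs when single arrays were left out. Without withdrawn replicate 1 there was 1 lower, without withdrawn replicate 2 there were 2 higher and 2 lower, without replicate 1 at 2% O2 2 lower, without replicate 2 at 2% O2 2 higher, and without replicate 3 at 2% O2 2 of each. H2AC14 overlapped between the groups, with 6.13, 5.89 and 6.78 in withdrawn cells and 7.59, 6.56 and 7.06 at 2% O2. Of the 35 genes of G1/S and S phase 25 were higher in withdrawn cells and 0 lower, with RRM2 at 0.81 and CCNE1 at 0.65, and of the 30 G2/M genes 2 were higher and 4 lower.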

How the data were processed

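The values are log2 intensities in a single table that the authors deposited, and the submitters' processing notes name RMA, which corrects background, normalizes arrays by quantiles and summarises probes, which draws values near the floor together. The log2 scale was read from the values (2.68 to 14.5), and array medians were 7.30 to 7.42. The number of arrays limits precision. The labels name no batch or scan date.

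Of 28926 rows 19310 had 1 symbol, 1752 several and 7864 none in the platform annotation, and 19279 were matched through Entrez IDs to current RefSeq symbols. Where a gene had several rows the one of highest mean was taken, which left 18377 genes. Members and gene lists were chosen with earlier results of these data known. HIST3H3, now H3-4, is not covered by the selection rule under its current name.

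Groups were compared in limma 3.58.1 (R 4.3.3), lmFit and eBayes, in 1 fit of 4 groups, with Benjamini-Hochberg adjustment over 18377 genes; the fit was tested on simulated data. Every adjusted p is limma's, calls are at an adjusted p under 0.05, and log2 fold changes (± SE) are resistant minus parental, withdrawn minus treated, or 2% minus 20% O2. Named genes were drawn, not always in full, from a rule: per class and comparison the 3 called members with the largest rise and the 3 with the largest fall, the member with the highest mean, the polyadenylated members, SLBP, NPAT and up to 3 called list genes per direction; any others were named after their values were seen. The alternatives left out each array, scaled arrays to their 75th percentile, dropped genes under the 33rd percentile, normalized by quantiles again, weighted arrays, fitted 2 groups only, moderated with a trend and robustly, tested every row, averaged rows, and added rows with several symbols. Testing every row and averaging rows could not change the members' own values, since each member had 1 row. Figures used matplotlib 3.10.9 (Python 3.11.15).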

Additional observations from a re-analysis of the deposited data

Results flagged for a closer look

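In the group of 4 arrays of HepG2S1 with sorafenib at 20% O2, 9 of 55 members had 1 array far from the other 3 (Dixon's test at the 95% level). By chance about 1 in 20 groups is flagged. Only the members were checked, so the share of all genes flagged is not known. 5 of the 9 were on replicate 2, the array of lowest weight in its group over all genes (0.523, others 0.915 to 2.01). There H2BC7 was low at 11.49 (others 11.79 to 11.83), H2BC12 low at 11.57 (others 11.82 to 11.83), H4C3 low at 11.97 (others 12.02 to 12.03), H3C11 low at 7.16 (others 7.29 to 7.32) and H4C16 high at 7.21 (others 7.05 to 7.07). Replicate 3 was low on H2AC4 at 8.28 (others 8.51 to 8.55) and on H2BC17 at 7.26 (others 7.53 to 7.58). Replicate 4 was high on H1-6 at 5.36 (others 5.25 to 5.26) and on H2AC6 at 10.62 (others at 10.56). The other groups have 3 arrays and were not tested.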

How the results depend on the processing

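No member changed direction under an alternative while called. Leaving out 1 array at a time gave 39 to 41 higher and 6 to 7 lower for HepG2S1 with sorafenib against HepG2, 15 to 19 higher and 1 to 2 lower for withdrawal, 8 to 17 higher and 0 to 1 lower for 2% O2, 42 to 44 higher and 5 lower for withdrawn cells against HepG2, and 2 to 4 higher and 1 to 4 lower for withdrawn cells against those at 2% O2. Array weights gave 2 lower after withdrawal, the second being H2AC14. At 2% O2, 1 was lower (H2AC15) with the filter and with 75th percentile scaling. The filter, which left 41 members, gave 3 lower for withdrawn cells against HepG2 and reversed the median for withdrawn cells against those at 2% O2 (-0.0073, against 0.0635). Scaling gave 2 lower there. The cause was not tested, except that the filter removes members. With the 16 rows of several symbols added (71 rows, some with identical values and counted more than once), 55 were higher and 7 lower in HepG2S1 with sorafenib, 25 and 1 after withdrawal, 25 and 0 at 2% O2; the added calls stand for 2 distinct sets of values after withdrawal and 5 at 2% O2. No scaling moved the median of all genes by over 0.1. No paired analysis was possible because the labels give no replicate numbers shared between groups. Values near the floor limit folds, and no batch could be examined.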

Other observations

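Rows annotated to several histone genes were left out of the 55 members and are given here as values. There were 16 such rows with 13 distinct sets of values. In HepG2S1 with sorafenib against HepG2 12 of the 13 sets were called higher and 1 lower, against 30.1% and 27.2% of all genes. After withdrawal 2 sets were higher (10.1% of all genes), shared by H4C15 and H4C14 and by H2AC18, H2AC19, H2AC20 and H2AC21. The row of H2AC21 alone was called lower there. At 2% against 20% O2 5 sets were higher (8.99% of all genes), 3 of them of H3C13, H3C14 and H3C15. The row shared by H2BC12, H2BC12L, H2BC17 and H2BC5 was at 12.16 in HepG2S1 with sorafenib and 9.93 in HepG2 (2.23 ± 0.06, adjusted p = 1.6e-14 in limma). It was not called after withdrawal (-0.01 ± 0.06) or at 2% against 20% O2 (0.05 ± 0.06). The row shared by H3C4 and H2AC7 was at 12.24 in HepG2S1 with sorafenib and 10.68 in HepG2 (1.57 ± 0.08). The 1 row called lower, shared by H3C11 and H3C6, was at 3.82 in HepG2S1 with sorafenib, below the floor, and at 6.55 in HepG2 (-2.74 ± 0.09). These rows were chosen for mention after their values were seen.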
